A study of Mus musculus with 16 samples.

Results

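Liver transcripts of 10 genes of glucose production and insulin response were followed in 16 mouse livers: the enzymes Pck1, G6pc, Fbp1 and Pcx, the regulators Foxo1 and Ppargc1a, the insulin-responsive gene Igfbp1, and Insr, Irs1 and Irs2 of the insulin receptor pathway. They are the rows with these symbols in a deposited table of 55401 genes, and all 10 were found. Poly(A) RNA was sequenced in 4 groups of 4 libraries that cross a vector label with BBR, an abbreviation taken here to mean berberine, the alkaloid that the series title names. The knockdown-labelled BBR libraries carry the label AKR1B10 knockdown and BBR, the knockdown-labelled libraries carry that label alone, and the control BBR libraries and the control libraries carry the negative control label with and without BBR. The short names of all 16 libraries begin with AAV, the abbreviation of adeno-associated virus, in the controls too. The labels give no strain, sex, age, diet, dose, feeding state, target sequence or promoter of the vector, and do not say whether a library is 1 mouse or a pool. The p-values therefore measure the spread between libraries.

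Akr1b10, whose symbol the label carries, did not have a lower mean in the knockdown-labelled libraries, so every direction here belongs to the label. It had 0.451 ± 0.0583 FPKM (fragments per kilobase of transcript, scaled to library size) in the knockdown-labelled BBR libraries, 0.528 ± 0.230 in the knockdown-labelled, 0.359 ± 0.169 in the control BBR and 0.397 ± 0.151 in the control libraries (mean ± SD, n = 4 each). Akr1b10 was scarce in every library, with at most 0.859 FPKM, and no test of its difference is given here. Total counts per library lay between 46273129 and 66235443. Hepatocyte markers (Alb, Apoa1, Ttr, Cyp3a11, Serpina1c) were present, 5 of 5, and summed to 31847 to 39287 FPKM in the knockdown-labelled BBR, 20171 to 39274 in the knockdown-labelled, 31894 to 37996 in the control BBR and 34542 to 38710 in the control libraries. Knockdown-labelled library 4 had the lowest of these sums, and mitochondrially encoded genes took 35.4% of its counts, against 10.98% to 15.9% in the other 15. Knockdown-labelled library 3 and control BBR library 2 stood apart in inflammation-linked transcripts. Their summed FPKM of 10 acute-phase genes, which inflammation raises in hepatocytes, was 19550 and 19041, against 2169 to 6291 in the other 14, and that of 4 neutrophil markers was 278 and 19.0, against 0.303 to 6.29. Without both, a check chosen after these sums were seen, 0 of the 10 genes were called in any comparison, and of the 10 genes only Insr changed the sign of a log2 fold change. In summed FPKM of bulk liver RNA, fewer hepatocytes, less RNA per hepatocyte and a larger mitochondrial share of the library total cannot be told apart.

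Gluconeogenesis makes glucose from lactate, amino acids and glycerol, and keeps blood glucose up in fasting. Pyruvate carboxylase (Pcx), phosphoenolpyruvate carboxykinase (Pck1), fructose-1,6-bisphosphatase (Fbp1) and glucose-6-phosphatase (G6pc) catalyse the steps that bypass the irreversible reactions of glycolysis. Glucagon, through cAMP, raises Pck1, G6pc and the coactivator Ppargc1a in liver. Insulin, through its receptor (Insr), the docking proteins Irs1 and Irs2 and the kinase Akt, keeps the transcription factor Foxo1 out of the nucleus, which lowers G6pc, Igfbp1 and Irs2. Feeding and fasting shift several of these transcripts within hours.

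Those hormonal inputs meet in short promoters, and 3 of those that hold the letters searched for here are shown. The sequences are RefSeq's on GRCm38.p6, from 250 bases before to 50 bases after the start of transcription in RefSeq. Base positions count from that start, which can differ from the gene boundaries given here. In each of the 3 genes shown it lies inside them. Pck1 lies on chr2:173153048-173159273 (plus strand, up to 10 exons), and its window is chr2:173152823-173153122. G6pc lies on chr11:101367561-101377903 (plus strand, 5 exons), with the window chr11:101367466-101367765. Igfbp1 lies on chr11:7197782-7202546 (plus strand, 4 exons), with the window chr11:7197537-7197836. Capitals mark TNACGTCA, the form of cAMP response element searched, in Pck1, and TNTTTTG, the form of insulin response sequence searched, in G6pc and Igfbp1, on either strand.
Pck1: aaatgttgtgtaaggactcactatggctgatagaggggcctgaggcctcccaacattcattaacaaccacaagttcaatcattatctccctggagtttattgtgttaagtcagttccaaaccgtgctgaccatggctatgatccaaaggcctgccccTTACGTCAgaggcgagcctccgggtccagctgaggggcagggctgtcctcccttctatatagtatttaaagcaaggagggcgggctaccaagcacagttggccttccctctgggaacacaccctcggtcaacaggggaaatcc
G6pc: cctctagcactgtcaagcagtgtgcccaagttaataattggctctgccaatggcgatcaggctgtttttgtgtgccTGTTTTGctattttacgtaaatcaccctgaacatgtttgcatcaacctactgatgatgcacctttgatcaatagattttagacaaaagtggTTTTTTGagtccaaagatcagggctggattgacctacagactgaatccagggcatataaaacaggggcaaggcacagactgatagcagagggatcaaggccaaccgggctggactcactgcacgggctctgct
Igfbp1: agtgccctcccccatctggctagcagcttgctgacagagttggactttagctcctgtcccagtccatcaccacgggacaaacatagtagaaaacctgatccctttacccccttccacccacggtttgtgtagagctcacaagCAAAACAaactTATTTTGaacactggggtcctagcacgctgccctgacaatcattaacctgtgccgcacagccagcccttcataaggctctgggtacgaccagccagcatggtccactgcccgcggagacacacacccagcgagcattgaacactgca

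The Pck1 window held TTACGTCA from base -93. G6pc had the insulin response letters from bases -174 and -83, and Igfbp1 had them on opposite strands from bases -108 and -97, with 4 bases between. Irs1 matched from bases -111 and -32, and Irs2 from base -37. Neither motif was in the windows of Fbp1, Pcx, Ppargc1a or Foxo1. TNACGTCA was in 2.93% and TNTTTTG in 18.6% of 32851 mouse promoter windows of this length, so the second is a common match. A match describes letters, not binding. RefSeq windows were at hand for 9 of the 10 genes.

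Other genes lie on mm10 at chr13:62864753-62888282 (Fbp1, minus strand), chr19:4510472-4621752 (Pcx, plus), chr5:51454250-51567704 (Ppargc1a, minus), chr1:82233101-82291416 (Irs1, minus), chr8:10984681-11008458 (Irs2, minus), chr8:3122061-3279617 (Insr, minus) and chr3:52268336-52353221 (Foxo1, plus). All are annotated as protein-coding.

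**Figure D1:**
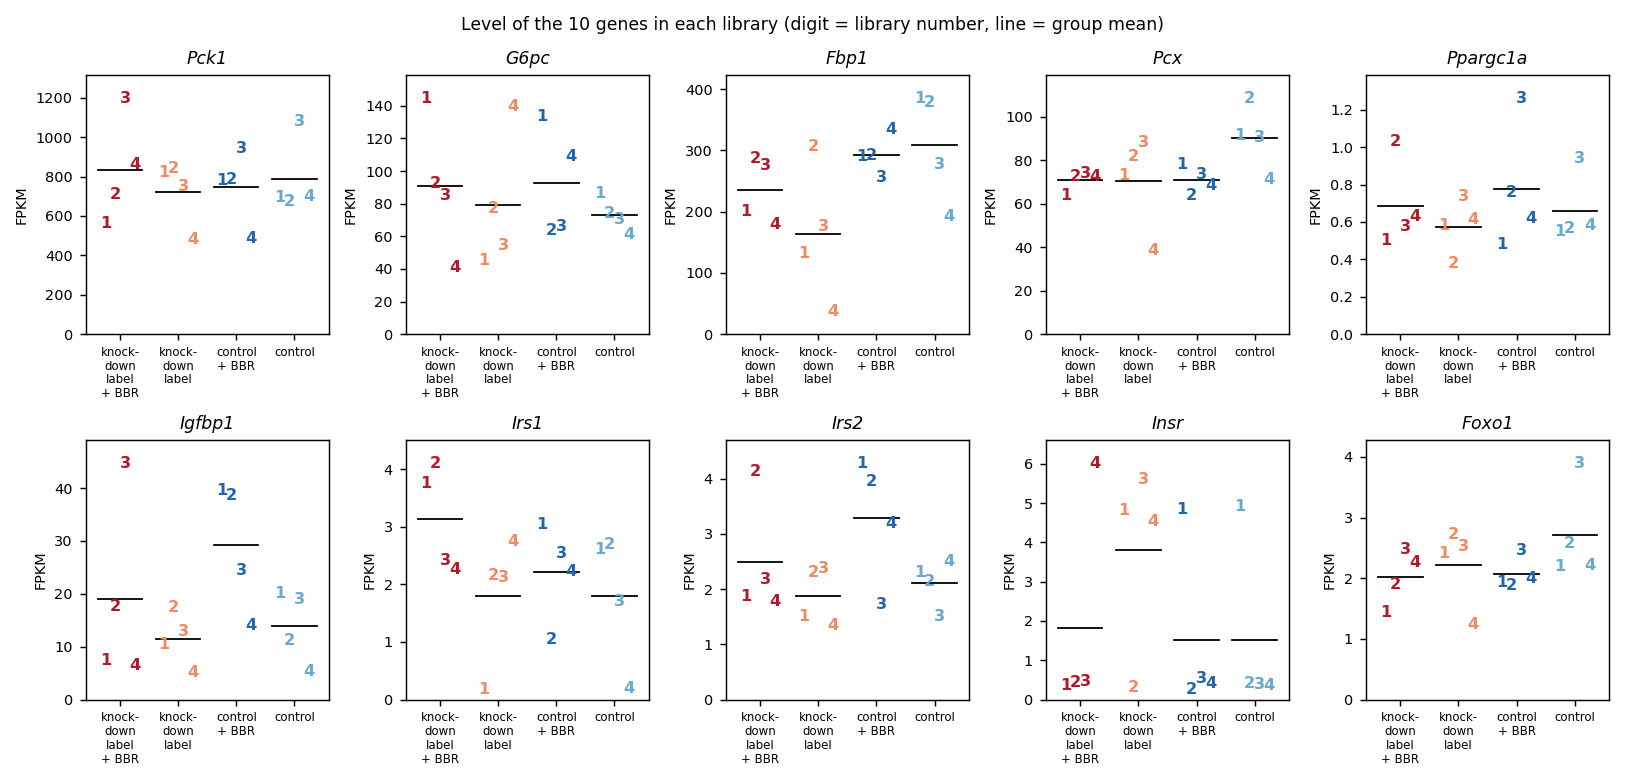
FPKM of each gene (linear axis from 0) in the 16 libraries; a digit is a library number and a line a group mean, with the groups from left to right knockdown label + BBR, knockdown label, control + BBR and control. The 4 groups overlap for every gene, and Insr falls into a high level of 4.53 to 6.01 FPKM and a low one of 0.267 to 0.547 FPKM inside each group.

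The enzymes were the most abundant of the 10. Pck1 had 561, 707, 1198 and 862 FPKM in knockdown-labelled BBR libraries 1 to 4 and 819.6, 840.2, 749 and 480.3 FPKM in knockdown-labelled libraries 1 to 4. The control BBR libraries had 782, 786, 942 and 485 FPKM and the control libraries 693, 675, 1081 and 700.3 FPKM of Pck1. The highest value belonged to knockdown-labelled BBR library 3 and the lowest to knockdown-labelled library 4, and the groups overlapped, with means of 832 ± 273, 722 ± 166, 749 ± 191 and 787 ± 196 FPKM in the same order (SD, 4 libraries each).

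G6pc, the enzyme that releases free glucose, had 145, 92.6, 85.0 and 40.6 FPKM in the knockdown-labelled BBR libraries and 45.02, 77.2, 54.3 and 139.9 FPKM in the knockdown-labelled libraries. It had 133, 63.6, 66.1 and 109 FPKM in the control BBR libraries and 86.3, 74.0, 70.5 and 61.4 FPKM in the control libraries. Group means of G6pc were 90.7 ± 42.7, 79.1 ± 42.7, 93.0 ± 33.998 and 73.1 ± 10.3 FPKM (SD, 4 libraries each). The control libraries were tightly grouped, and in each of the other groups 1 or 2 libraries stood above all controls. The library with the highest G6pc of its group was never the one with the highest Pck1.

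Fbp1, which removes a phosphate from fructose-1,6-bisphosphate, had 199.6, 286, 276 and 179 FPKM in the knockdown-labelled BBR libraries and 132, 306, 176 and 36.9 FPKM in the knockdown-labelled libraries. The control BBR libraries had 289, 291, 255 and 335 FPKM and the control libraries 385, 378, 278 and 192 FPKM. Knockdown-labelled libraries 1, 3 and 4 were below every control library, while knockdown-labelled library 2 lay among the controls. The group means were 235 ± 53.9, 163 ± 112, 292 ± 32.6 and 308 ± 91.7 FPKM (SD, 4 libraries each).

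Pcx, which carboxylates pyruvate in mitochondria, had the smallest within-group SD of the 10 on the scale of log2 counts scaled to library size (0.24), though not in FPKM, where the knockdown-labelled libraries ranged from 38.4 to 88.3. It had 63.9, 72.4, 74.2 and 72.4 FPKM in the knockdown-labelled BBR libraries, 72.8, 81.8, 88.3 and 38.4 FPKM in the knockdown-labelled libraries, 78.1, 63.9, 73.4 and 68.6 FPKM in the control BBR libraries and 91.3, 109, 90.7 and 71.4 FPKM in the control libraries. The means were 70.7 ± 4.61, 70.3 ± 22.2, 71.0 ± 6.12 and 90.5 ± 15.2 FPKM (SD, 4 libraries each), and control library 4 overlapped the treated groups.

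The regulators were scarce as transcripts. Foxo1 had 1.43, 1.903, 2.47 and 2.26 FPKM in the knockdown-labelled BBR libraries, 2.40, 2.73, 2.52 and 1.24 FPKM in the knockdown-labelled libraries, 1.93, 1.87, 2.45 and 2.00 FPKM in the control BBR libraries and 2.19, 2.56, 3.89 and 2.21 FPKM in the control libraries. Control library 3 stood above all others, and the means were 2.01 ± 0.454, 2.22 ± 0.666, 2.07 ± 0.264 and 2.71 ± 0.803 FPKM (SD, 4 libraries each). Ppargc1a had 0.503, 1.03, 0.578 and 0.632 FPKM in the knockdown-labelled BBR libraries, 0.581, 0.375, 0.734 and 0.611 FPKM in the knockdown-labelled libraries, 0.479, 0.755, 1.26 and 0.619 FPKM in the control BBR libraries and 0.547, 0.564, 0.938 and 0.583 FPKM in the control libraries. It rested on 178 to 593 counts per library and reached 1 FPKM in 2 libraries, so it did not pass the filter on low values that the other 9 genes passed (1 FPKM in at least 4 of 16 libraries), and its folds come from a fit of 30801 genes without that filter.

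Igfbp1 encodes a secreted protein that binds insulin-like growth factors and whose hepatic transcript insulin lowers. It had 7.43, 17.6, 44.7 and 6.40 FPKM in the knockdown-labelled BBR libraries and 10.4, 17.4, 12.9 and 5.13 FPKM in the knockdown-labelled libraries. The control BBR libraries had 39.6, 38.6, 24.5 and 13.99 FPKM and the control libraries 20.1, 11.2, 19.0 and 5.24 FPKM. Control BBR libraries 1, 2 and 3 were above every control library and library 4 was not. The means were 19.0 ± 17.8, 11.4 ± 5.10, 29.2 ± 12.2 and 13.9 ± 6.98 FPKM (SD, 4 libraries each), and the first of these rests on knockdown-labelled BBR library 3, as the other 3 of that group lay between 6.40 and 17.6 FPKM.

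Irs2, the docking protein that couples the receptor to Akt in fasting liver, had 1.86, 4.12, 2.18 and 1.78 FPKM in the knockdown-labelled BBR libraries and 1.51, 2.30, 2.37 and 1.33 FPKM in the knockdown-labelled libraries. The control BBR libraries had 4.28, 3.95, 1.72 and 3.18 FPKM and the control libraries 2.30, 2.13, 1.499 and 2.51 FPKM. As for Igfbp1, 3 of 4 control BBR libraries exceeded every control library, but the exception was library 3 for Irs2 and library 4 for Igfbp1. The means were 2.49 ± 1.103, 1.88 ± 0.530, 3.28 ± 1.14 and 2.11 ± 0.435 FPKM (SD, 4 libraries each).

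The receptor gene Insr came at separate levels that cut across the groups. It had 0.363, 0.436, 0.463 and 6.01 FPKM in the knockdown-labelled BBR libraries, 4.82, 0.318, 5.60 and 4.53 FPKM in the knockdown-labelled libraries, 4.84, 0.267, 0.547 and 0.400 FPKM in the control BBR libraries and 4.92, 0.395, 0.389 and 0.358 FPKM in the control libraries. Thus 1, 3, 1 and 1 of 4 libraries were high in that order, 6 in all, and no library lay between 0.547 and 4.53 FPKM, a step of 8.27-fold. The counts spanned 226 to 4950 and gave the same step: the length implied by count and FPKM was 14898 to 15393 bases in the high libraries and 15215 to 15663 bases in the low ones. Of all 10846 genes tested, 3.11% had a step of more than 8-fold somewhere among their 16 sorted values. Over the 55401 genes of the table, Insr was the only one whose counts in those 6 libraries all exceeded 3 times its highest count in the other 10, and 0 genes showed the opposite split. Group means of Insr thus count high libraries more than they measure a shift.

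Irs1, the other docking protein, showed a step that coincides with an overlapping gene. It had 3.76, 4.10, 2.42 and 2.27 FPKM in the knockdown-labelled BBR libraries, 0.172, 2.16, 2.13 and 2.74 FPKM in the knockdown-labelled libraries, 3.04, 1.04, 2.54 and 2.23 FPKM in the control BBR libraries and 2.61, 2.70, 1.71 and 0.196 FPKM in the control libraries. Knockdown-labelled library 1 and control library 4 were at 0.172 and 0.196 FPKM, and the other 14 at 1.04 FPKM or more. Gm9747 lies on the opposite strand at chr1:82233112-82235933, wholly within the exon of the Irs1 3' untranslated region (chr1:82233101-82237604). Its count was 1000 in knockdown-labelled library 1 and 581 in control library 4, where Irs1 had 101 and 108 counts, and 0 in each of the other 14 libraries. The summed count of both genes was 1101 and 689 in those libraries, against 580 to 2060 in the other 14. The strand setting of the count step is not given in the sources used here, so reads of the 2 genes cannot be told apart, and the Irs1 values of these libraries are uncertain. Steps of more than 4-fold occurred in 6.15% of the genes tested.

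**Figure D2:**
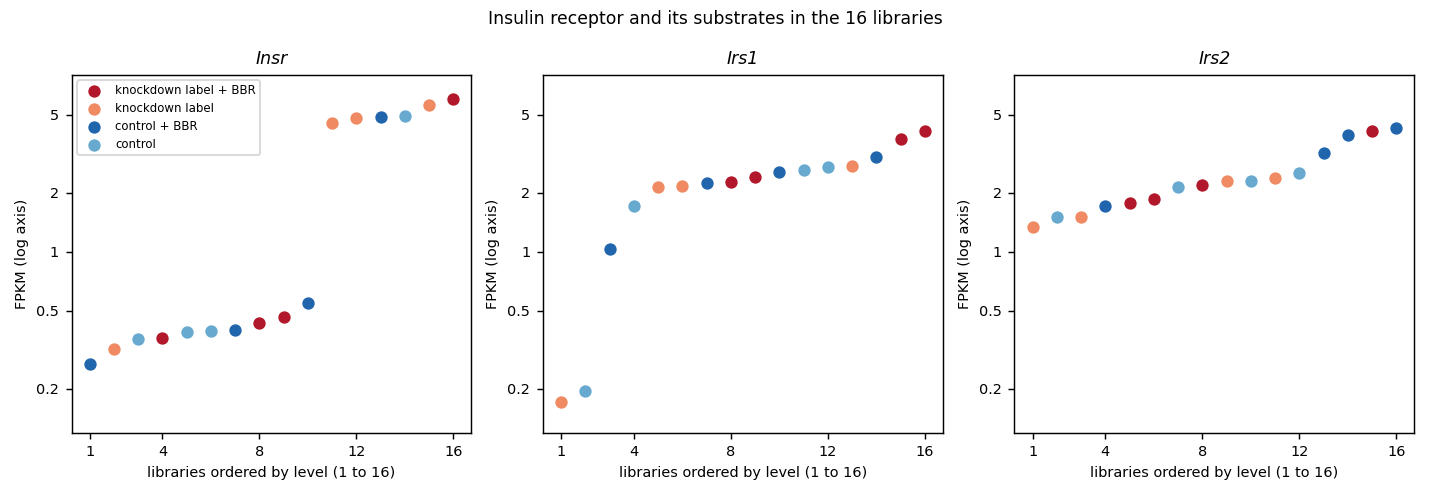
FPKM of Insr, Irs1 and Irs2 (log axis) with the 16 libraries ordered from low to high, coloured by group. Insr has 10 libraries at 0.267 to 0.547 FPKM and 6 at 4.53 to 6.01 FPKM, Irs1 has 2 libraries at 0.172 and 0.196 FPKM, and Irs2 has no step of that size.

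Spread between libraries of a group ranked the genes differently from their levels. On the log2 CPM scale (counts scaled to library size), the within-group SD was 0.24 for Pcx, 0.35 for Foxo1, 0.40 for Pck1, 0.46 for Irs2, 0.48 for Ppargc1a, 0.63 for G6pc, 0.65 for Fbp1, 0.94 for Igfbp1, 1.37 for Irs1 and 1.92 for Insr. The median gene tested had 0.36. Of the genes tested, 91.4% varied less than Igfbp1, 96.5% less than Irs1 and 98.7% less than Insr. The SD of Irs1 includes knockdown-labelled library 1 and control library 4, whose Irs1 values are uncertain because of the overlap with Gm9747. Knockdown-labelled library 4 had the lowest FPKM of all 16 for 6 of the 10 genes (Pck1, Fbp1, Pcx, Igfbp1, Irs2 and Foxo1). After TMM scaling, a library scaling that discounts a few dominant genes, it was lowest for 2 and highest for G6pc.

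The comparison of knockdown-labelled with control libraries asks what the labelled vector did without BBR. Fbp1 had the smallest p of the 10: its fitted ratio was 0.551 (95% interval 0.305 to 0.996) (log2 fold change -0.86, SE 0.40, unadjusted p = 0.0485), and the adjusted p was 0.335 after Benjamini-Hochberg adjustment over 10846 genes in the quasi-likelihood test of edgeR. None of the 10 genes passed an adjusted p of 0.05, as 0% of all genes did, and Fbp1 was the 1 gene at an unadjusted p under 0.05, where 14.8% of all genes stood. Fbp1 depends on single libraries. Its log2 fold change was -0.54 without knockdown-labelled library 4, the library rich in mitochondrial counts, and -1.36 (adjusted p = 0.0473) without knockdown-labelled library 2. That last fit is the only alternative in which any of the 10 genes was called. Pcx had a ratio of 0.822 (95% interval 0.637 to 1.06) and Foxo1 of 0.862 (95% interval 0.606 to 1.23). Pck1 and Irs2 had ratios nearest to 1, with 0.972 (95% interval 0.646 to 1.46) and 0.954 (95% interval 0.610 to 1.49). The ratio of Insr, 2.69 (95% interval 0.422 to 17.2), reflects 3 high libraries against 1. Of the 10 genes, 0 had groups that did not overlap in FPKM, against 5.57% of all genes tested. Of the 9 genes past the filter, 3 had a fitted log2 fold change above 0 and 6 below, with a median of -0.07, beside 51.9% above 0 and a median of 0.02 over all genes tested. DESeq2 called 105 genes, none of them among the 10.

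Around them, more genes of the glucose-producing route were fitted below 0 than above. Of 22 other gluconeogenic enzymes and carriers, 19 were tested: 6 had log2 fold changes above 0 and 13 below, with a median of -0.42, 7 of them at an unadjusted p under 0.05 (1 above, 6 below), and 0 called. Without knockdown-labelled library 4 that median was -0.16. Other hepatocyte lists also lay mostly below 0. Pericentral hepatocyte genes were above 0 in 0 of 9 (median -0.25) and periportal hepatocyte genes in 2 of 10 (median -0.14). Hepatocyte markers were above 0 in 1 of 5 (median -0.10), so this direction was not particular to the glucose-producing route. Mpc1, a subunit of the mitochondrial pyruvate carrier, had a log2 fold change of -0.87 (SE 0.28, adjusted p = 0.267). The glycolytic and gluconeogenic enzyme Eno1 had a log2 fold change of -0.91 (SE 0.33, adjusted p = 0.290), and Got1, the cytosolic aspartate aminotransferase, had a log2 fold change of -0.90 (SE 0.35, adjusted p = 0.298). Among 21 tested genes of the cAMP, glucocorticoid and coactivator axis, 15 were above 0 and 6 below (median 0.19), with a log2 fold change of 0.43 (SE 0.14, adjusted p = 0.279) for the acetyltransferase Ep300. The 26 tested insulin signalling genes split 13 and 13 (median -0.02), and in that list Socs3, an inhibitor of cytokine and insulin signalling, had a log2 fold change of 1.19 (SE 0.42, adjusted p = 0.290). FOXO targets and other insulin-repressed genes were above 0 in 5 of 16 and genes induced by insulin in 4 of 11, with medians of -0.12 and -0.14.

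One insulin-induced gene stood apart from its list. Angptl8, a secreted regulator of lipoprotein lipase, had 42.1, 47.4, 55.2 and 175 FPKM in the knockdown-labelled libraries, against 13.3, 23.5, 33.4 and 24.5 FPKM in the control libraries, with a log2 fold change of 1.96 (SE 0.52, adjusted p = 0.267). With BBR it had 141, 59.1, 65.5 and 52.1 FPKM in the knockdown-labelled BBR libraries, against 20.2, 9.65, 25.8 and 23.7 FPKM in the control BBR libraries, with a log2 fold change of 1.95 (SE 0.52, adjusted p = 0.995). In neither pair did the groups overlap, and in neither did the gene pass adjustment. Angptl8 lies within Dock6 on the opposite strand, which the counting may not separate. Markers of other cells are given beside these values. The summed Kupffer cell and macrophage markers (5 of 5 present, none at 0 in all libraries) were 54.3, 42.1, 119 and 44.7 FPKM in knockdown-labelled libraries 1 to 4, against 19.4 to 44.9 FPKM in the control libraries. Acute-phase genes were above 0 in 8 of 10 with a median of 1.79, and with a median of 0.82 without knockdown-labelled library 3 and control BBR library 2. Neutrophil markers summed to 3.595, 0.471, 278 and 2.58 FPKM in knockdown-labelled libraries 1 to 4, against 0.303 to 1.55 FPKM in the control libraries, so the high sum is that of library 3 alone. Without those libraries the median of the other gluconeogenic genes was -0.27, against -0.42 with them. Their part in the values above was not tested.

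BBR in the controls, the comparison of control BBR with control libraries, asks what the compound did under the negative control vector. Irs2 and Igfbp1 had the largest fitted ratios of the 10. Irs2 had 1.58 (95% interval 1.01 to 2.48) (log2 fold change 0.66, SE 0.30, unadjusted p = 0.0460), and Igfbp1 had 2.11 (95% interval 0.872 to 5.11) (log2 fold change 1.08, SE 0.60). Neither passed, with an adjusted p of 0.999 for both by edgeR's quasi-likelihood test. None of the 10 genes was called, as 0% of all genes were, and Irs2 alone was at an unadjusted p under 0.05, where 3.68% of all genes stood. Leaving out each library in turn kept the log2 fold change of Irs2 between 0.52 and 0.88 and that of Igfbp1 between 0.80 and 1.32. Pcx had a ratio of 0.791 (95% interval 0.612 to 1.02) and Foxo1 of 0.761 (95% interval 0.534 to 1.08). The enzymes Pck1, Fbp1 and G6pc had ratios of 0.956 (95% interval 0.636 to 1.44), 0.957 (95% interval 0.532 to 1.72) and 1.27 (95% interval 0.695 to 2.33). Each interval held ratios below and above 1, so with 4 libraries per group no direction was determined for these enzymes. Groups of 0 genes failed to overlap, against 2.93% of all genes. The 9 tested genes split into 4 above 0 and 5 below with a median of -0.03, beside 49.7% above 0 and a median of -0.0017 for all genes tested. By DESeq2, 3 genes in all were called and none of the 10.

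Genes that insulin induces were fitted below 0 in the same comparison in 10 of 11 cases, with a median of -0.48, 4 at an unadjusted p under 0.05 and 0 called. Scd1, a fatty acid desaturase, had 224, 121, 302 and 100.3 FPKM in the control BBR libraries, against 413, 1019, 265 and 469 FPKM in the control libraries, with a log2 fold change of -1.50 (SE 0.44, adjusted p = 0.999). Thrsp, a lipogenic nuclear protein, and Pklr, liver pyruvate kinase, had a log2 fold change of -1.36 (SE 0.44, adjusted p = 0.999) and a log2 fold change of -0.77 (SE 0.30, adjusted p = 0.999). Among genes that FOXO factors induce or insulin represses, 5 of 16 were above 0 (median -0.12). Pdk4, a kinase that shuts pyruvate dehydrogenase, was among them with 4.04, 3.96, 1.80 and 0.948 FPKM in the control BBR libraries, against 1.53, 1.58, 0.795 and 0.394 FPKM in the control libraries, and a log2 fold change of 1.35 (SE 0.67, adjusted p = 0.999). The other gluconeogenic enzymes and carriers split 8 above and 11 below (median -0.13), and Slc2a2, the glucose transporter of hepatocytes, had a log2 fold change of -0.68 (SE 0.23, adjusted p = 0.999). Insulin signalling genes were above 0 in 8 of 26 (median -0.06), and the cAMP axis in 9 of 21 (median -0.04). Acute-phase genes were above 0 in 10 of 10 (median 1.58, and 0.66 without knockdown-labelled library 3 and control BBR library 2), and without those libraries insulin-induced genes were below 0 in 8 of 11 (median -0.27). Clock genes were below 0 in 12 of 14 with a median of -0.83, and their summed FPKM was 24.2 to 103 in the control BBR and 71.0 to 187 in the control libraries. Since several of these genes follow the time of day and collection times are not given in the labels, time of day was not tested.

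BBR under the knockdown label, the comparison of knockdown-labelled BBR with knockdown-labelled libraries, showed no gene of the 10 past the threshold. Their adjusted p-values lay between 0.742 and 1 by edgeR's quasi-likelihood test, none was at an unadjusted p under 0.05, where 9.48% of all genes stood, and 0% of all genes passed adjustment. Igfbp1 had the ratio 1.54 (95% interval 0.640 to 3.71), and without knockdown-labelled BBR library 3 its log2 fold change turned to -0.28. Irs2 had 1.19 (95% interval 0.761 to 1.86), which turned to a log2 fold change of -0.08 without knockdown-labelled BBR library 2. Fbp1 had 1.34 (95% interval 0.743 to 2.41), and Pck1 1.05 (95% interval 0.700 to 1.58). Non-overlapping groups were seen for 0 of the 10, against 5.08% of all genes. Of the 9 tested, 5 were above 0 and 4 below (median 0.07), beside 46.6% above 0 and a median of -0.03 for all genes. DESeq2 called 55 genes, none of the 10.

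In the wider lists of that comparison, other gluconeogenic genes split 10 above and 9 below (median 0.07, and -0.10 without knockdown-labelled library 4), with a log2 fold change of 0.75 (SE 0.28, adjusted p = 0.454) for Mpc1 and a log2 fold change of 0.76 (SE 0.32, adjusted p = 0.507) for the lactate transporter Slc16a1. Prkar2a, a regulatory subunit of the cAMP-dependent kinase, had a log2 fold change of -0.60 (SE 0.16, adjusted p = 0.396), within an axis of 8 above and 13 below (median -0.12). Insulin signalling genes split 13 and 13 (median -0.02), with a log2 fold change of 0.52 (SE 0.21, adjusted p = 0.480) for the phosphoinositide 3-kinase subunit Pik3r1. Fasn, fatty acid synthase, had 44.96, 28.1, 20.1 and 12.3 FPKM in the knockdown-labelled BBR libraries, against 10.04, 11.8, 10.6 and 9.17 FPKM in the knockdown-labelled libraries, with a log2 fold change of 1.17 (SE 0.33, adjusted p = 0.396), among insulin-induced genes that were above 0 in 8 of 11 (median 0.17). FOXO targets were above 0 in 9 of 16 (median 0.29, and -0.01 without knockdown-labelled BBR library 3). No gene of these lists was called. Acute-phase genes were below 0 in 8 of 10, with a median of -1.34, and of -0.04 without knockdown-labelled library 3 and control BBR library 2.

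**Figure D3:**
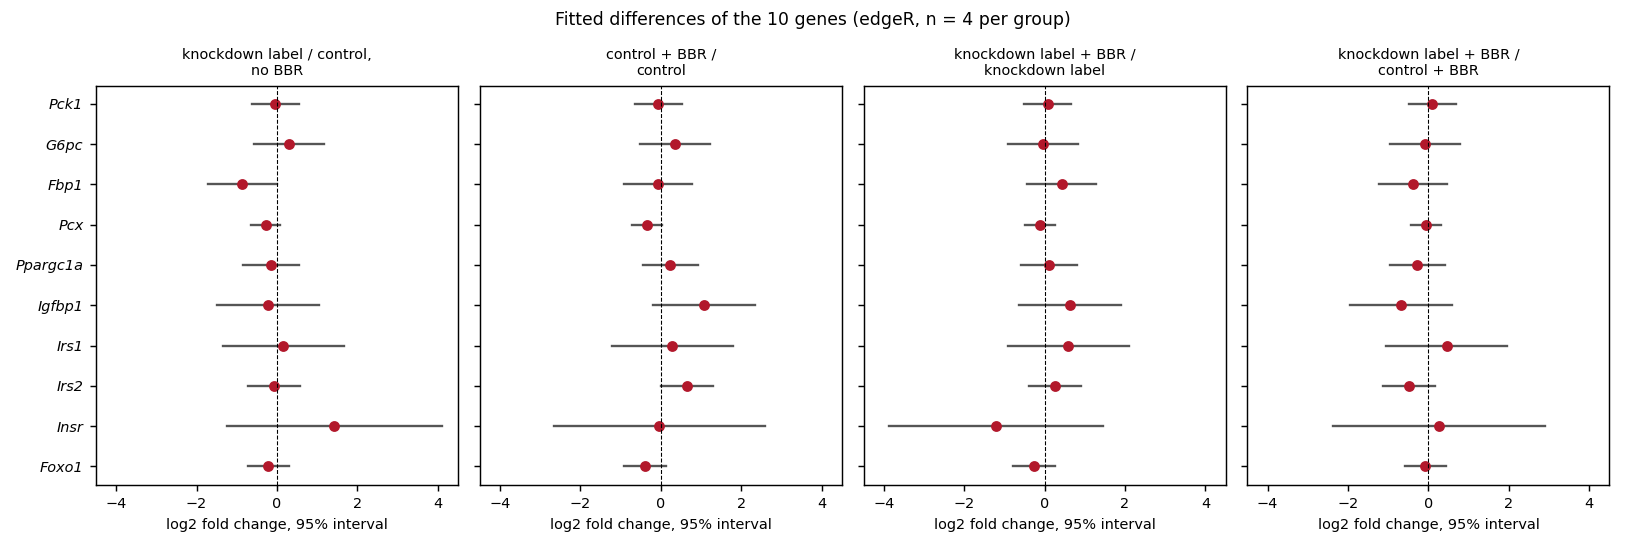
Fitted log2 fold changes of the 10 genes with 95% intervals in 4 comparisons, one per panel, with a dashed line at 0, no difference. Of the 40 intervals, those of Fbp1 for the knockdown label and Irs2 for BBR in controls do not reach 0, the interval of Insr is the widest in each panel, and no gene passes adjustment.

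The label under BBR, knockdown-labelled BBR against control BBR libraries, gave adjusted p-values of 0.916 to 0.999 for the 10 genes, so 0 were called, as were 0% of all genes. None was at an unadjusted p under 0.05, where 4.57% of all genes stood. Irs2 had a ratio of 0.719 (95% interval 0.459 to 1.13), Igfbp1 of 0.626 (95% interval 0.260 to 1.505) and Fbp1 of 0.771 (95% interval 0.428 to 1.39). Pck1 and Pcx had 1.07 (95% interval 0.711 to 1.61) and 0.959 (95% interval 0.743 to 1.24). The groups of 0 genes failed to overlap, against 4.36% of all genes, and 3 of the 9 tested were above 0 and 6 below (median -0.09), beside 49% above 0 and a median of -0.01. DESeq2 called 5 genes and none of the 10.

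Got1 was the gluconeogenic gene with the smallest p in this comparison: it had 44.9, 43.0, 43.7 and 30.1 FPKM in the knockdown-labelled BBR libraries, against 105, 122, 116 and 49.4 FPKM in the control BBR libraries, with no overlap and a log2 fold change of -1.35 (SE 0.36, adjusted p = 0.995). Its list split 7 above and 12 below (median -0.10). All 11 tested insulin-induced genes were above 0, with a median of 0.40, 5 at an unadjusted p under 0.05 and 0 called. Their summed FPKM was 526 to 796 in the knockdown-labelled BBR and 230 to 514 in the control BBR libraries, lowest in control BBR library 2. Control BBR libraries 1, 3 and 4 had 439, 514 and 330 FPKM. The median of this list without control BBR library 2 is not reported here. The comparison of BBR in controls uses the same control BBR libraries, so its lower values are not independent of these. Fasn had a log2 fold change of 1.23 (SE 0.33, adjusted p = 0.995). The cAMP axis was above 0 in 17 of 21 (median 0.12), FOXO targets in 10 of 16 (median 0.05) and insulin signalling in 15 of 26 (median 0.04). Clock genes were above 0 in 12 of 14 with a median of 0.84, and their summed FPKM was 61.4 to 167 in the knockdown-labelled BBR and 24.2 to 103 in the control BBR libraries. Acute-phase genes were above 0 in 0 of 10 (median -1.12, and -0.03 without knockdown-labelled library 3 and control BBR library 2). Periportal hepatocyte genes, which mark the zone where gluconeogenesis is strongest, were above 0 in 1 of 10 (median -0.29).

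Against the control libraries, the knockdown-labelled BBR libraries had a Pcx ratio of 0.759 (95% interval 0.587 to 0.979) (unadjusted p = 0.0359, adjusted p = 0.856, edgeR) and a Foxo1 ratio of 0.718 (95% interval 0.504 to 1.02). Pcx was the 1 gene of the 10 at an unadjusted p under 0.05, where 5.64% of all genes stood; 0 of the 10 and 0% of all genes passed adjustment, and 0 of the 10 had groups that did not overlap, against 6.2%. Of the 9 tested genes, 6 were above 0 and 3 below (median 0.18), beside 49.6% above 0 for all genes. The mean of Pcx was between 70.3 and 71.0 FPKM in the 3 groups other than the controls and 90.5 FPKM in the controls. Those comparisons share the control libraries, so their values are not independent.

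The difference between the effects of BBR under the knockdown label and under the control label, an interaction, was 0.48 (SE 0.56) for Fbp1, -0.41 (SE 0.43) for Irs2, -0.45 (SE 0.84) for Igfbp1 and -1.17 (SE 1.75) for Insr on the log2 scale. Adjusted p-values lay between 0.844 and 1 for the 10 genes by edgeR's quasi-likelihood test, none was at an unadjusted p under 0.05, where 6.56% of all genes stood, and 0% of all genes passed. Of the 9 tested, 5 were above 0 and 4 below, beside 48.8% above 0 for all genes. These intervals are wide: for Irs2 the interval of the interaction ran from -1.32 to 0.50, which spans differences in either direction. Insulin-induced genes were above 0 in 9 of 11 (median 0.76), with a log2 fold change of 1.65 (SE 0.46, adjusted p = 0.756) for Fasn. Acute-phase genes were above 0 in 1 of 10, with a median of -2.72 and 7 of the 9 below 0 at an unadjusted p under 0.05. The tested neutrophil markers (2 of 4) had a median of -7.44, and Kupffer cell and macrophage markers were above 0 in 0 of 4, with a median of -1.02. Without knockdown-labelled library 3 and control BBR library 2 those medians were -0.99, -0.66 and -0.42, and insulin-induced genes were above 0 in 7 of 11 (median 0.66). Other gluconeogenic genes were above 0 in 14 of 19 (median 0.18), and without knockdown-labelled library 4 their median was -0.05.

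**Figure D4:**
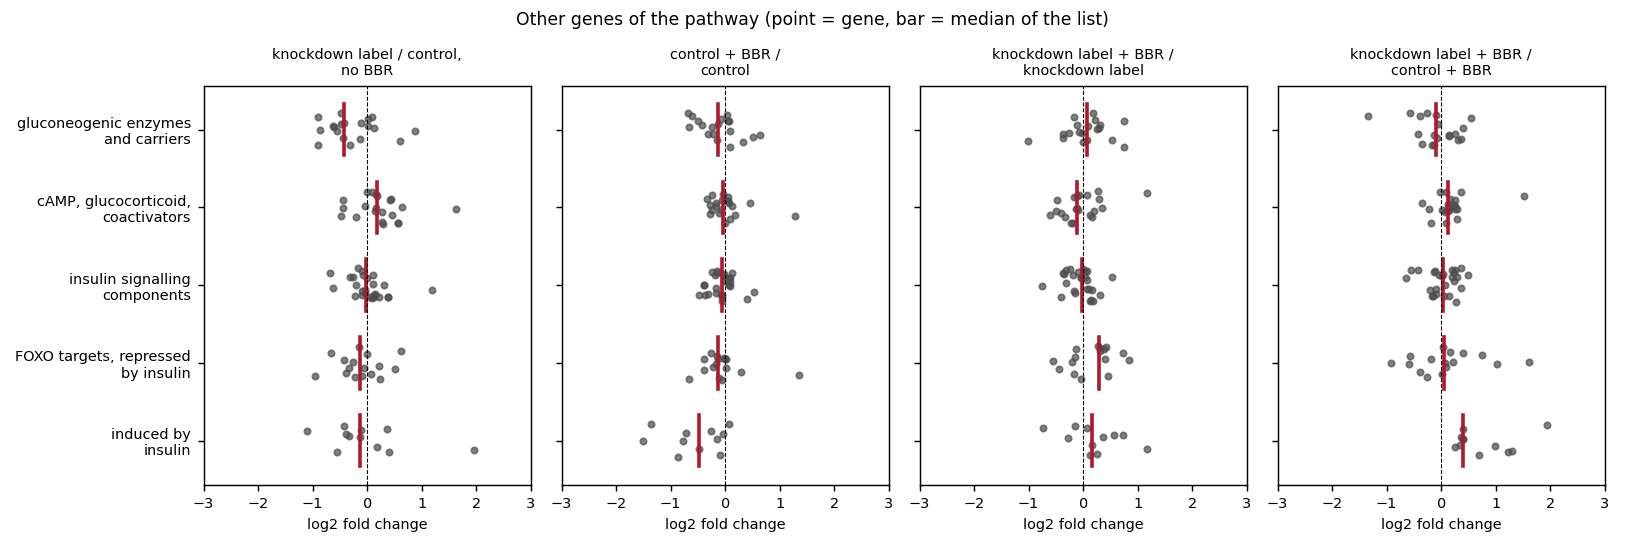
Fitted log2 fold changes of the tested genes in each wider list, in 4 comparisons, with the list median as a red bar and a dashed line at 0. The insulin-induced list has medians of -0.48 for BBR in controls and 0.40 for the knockdown label under BBR, and no gene of any list passes adjustment. Both of those medians use the control BBR libraries and are not independent.

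Some of the 10 genes varied together from library to library. Over 45 pairs and 16 libraries, log2 CPM correlated past Benjamini-Hochberg adjustment in 2 pairs by Pearson's r and in 0 by Spearman's rho. Foxo1 and Pcx had r = 0.742 (permutation p = 0.0014, adjusted 0.0430) and rho = 0.747 (adjusted 0.0559). Foxo1 and Pck1 had r = 0.720 (permutation p = 0.00191, adjusted 0.0430) and rho = 0.715 (adjusted 0.0559). Without the 2 libraries farthest from the median of Pcx (knockdown-labelled 4 and control 2), r was 0.788 for the first pair, and without the 2 farthest from the median of Pck1 (knockdown-labelled BBR 3 and control BBR 4), r was 0.833 for the second. Control library 3, the highest of 16 for Foxo1, stayed in both, so these values do not show how far the pairs rest on it. Deviations from the group means, which remove differences between group means, gave r of 0.673 and 0.821. Pck1 and G6pc, both of which glucagon raises, had r = -0.438 (permutation p = 0.0899, adjusted 0.357) and rho = -0.468. Foxo1 and G6pc also went in opposite directions, with r = -0.556 (permutation p = 0.0251, adjusted 0.222) and rho = -0.618. Of all pairs, 23 were positive and 22 negative. Insr and Irs1 fall into separate levels, so no value is given for them.

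**Figure D5:**
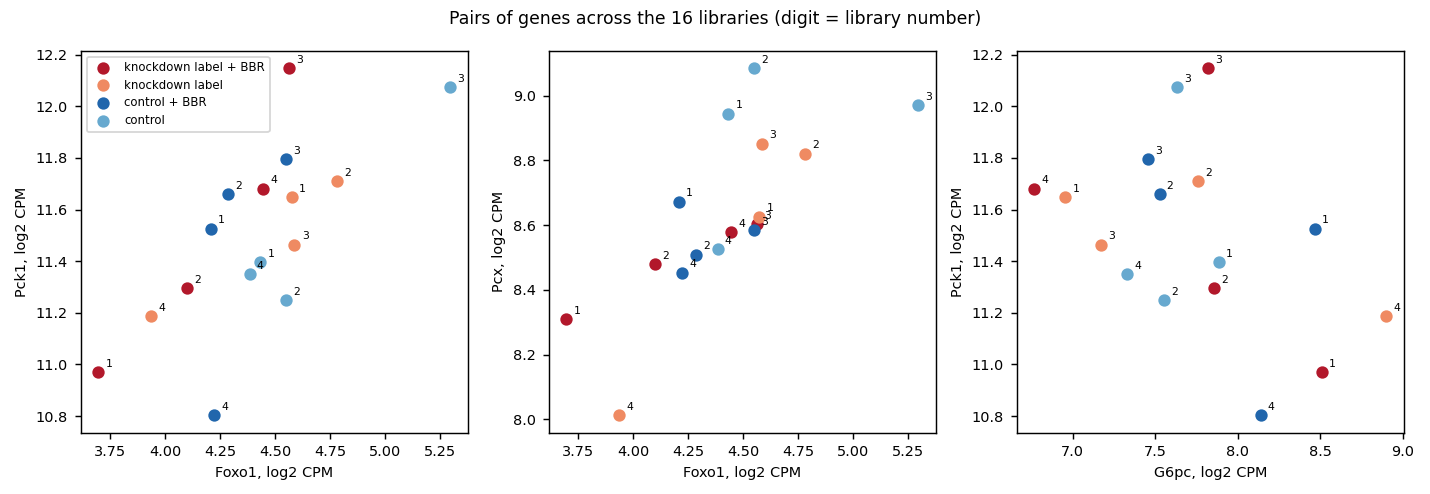
Log2 CPM of pairs of genes in the 16 libraries, coloured by group. Pck1 (r = 0.720) and Pcx (r = 0.742) go up with Foxo1, while Pck1 with G6pc has r = -0.438. Foxo1 with G6pc, not drawn, has r = -0.556.

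Among all genes tested, the nearest to Pck1 by Spearman's rho of log2 CPM over the 16 libraries were Cdip1 (0.885), Cebpd (0.876) and Cebpb (0.874), the last a transcription factor of liver and acute-phase genes. Igfbp1 was nearest to Btg1 (0.959), an antiproliferative gene, Leprotl1 (0.944) and Nipal3 (0.926). For Irs2 they were Gm10319 (0.8294), Gm9774 (0.815) and Pigb (0.815), and for Ppargc1a Neu1 (0.776) and Gpr137 (0.768). These are among the highest of 10846 values for each gene and are given as a description.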

How the data were processed

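Liver poly(A) RNA of 16 libraries in 4 groups of 4 was sequenced as stranded (dUTP) paired ends, per the labels' protocols. The submitters' processing notes name cutadapt 1.9, HISAT2 2.0.4, StringTie 1.3.4d, edgeR, DESeq2 and the mm10 build, and give no roles. Per the file headers, the authors deposited a whole-number count and an FPKM value per gene and library, with FPKM scaled by length and library total. The tool behind the count values and the use of strand are not given in the sources used here.

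Genes with at least 1 FPKM in at least 4 of 16 libraries (10846 of 55401) entered edgeR 4.0.16, whose quasi-likelihood test was applied to the deposited counts (R 4.3.3, TMM scaling, a common fit of the 4 group means, two-sided, Benjamini-Hochberg adjustment over all genes tested, threshold 0.05). Intervals are at 95% and include the spread between libraries. Log2 CPM used a prior count of 2. Correlations used 100000 permutations in Python 3.11.15 with numpy 2.4.6 and scipy 1.17.1. Group values are FPKM means with SD. The 10 genes are all named, and each wider list names its 3 genes with the smallest p per comparison, of which not all are printed, and a few values are not reported here. The genes and lists were chosen with earlier results of these data known. Gene coordinates are those of the table and were checked against GENCODE M21, where Ppargc1a ends at 51567726. The symbol Gyk, in the list of other gluconeogenic genes, was not matched. Steps were first tested on simulated counts.

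Alternatives were median-of-ratios scaling, no filter, fits to only the groups compared, a replicate block, DESeq2 1.42.0, limma 3.58.1 on log2(FPKM + 1) and log2(FPKM + 0.1), removal of mitochondrial and ribosomal protein genes, and libraries left out. For Irs1, summing its counts with those of Gm9747, and leaving out knockdown-labelled library 1 with control library 4, were added after its values were seen. Leaving out knockdown-labelled library 3 with control BBR library 2 was likewise added after the data were seen. Depth was 46273129 to 66235443 counts per library, and 0 pairs of libraries were identical.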

Additional observations from a re-analysis of the deposited data

Results flagged for a closer look

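Of 40 groups of 4 libraries (10 genes in 4 groups), 7 held a library far from the other 3, and chance gives about 1 in 20. Insr had such a library in 3 groups: 6.01 FPKM in knockdown-labelled BBR library 4 against at most 0.463 in the others, 4.84 FPKM in control BBR library 1 against at most 0.547, and 4.92 FPKM in control library 1 against at most 0.395. In the knockdown-labelled group, where 3 of 4 libraries were high, it was not marked. Irs2 reached 4.12 FPKM in knockdown-labelled BBR library 2, with 2.18 next. Pcx was at 63.9 FPKM in knockdown-labelled BBR library 1, with 72.4 next, a gap that is large only against the narrow range of its group. Control library 3 was far above the other controls for Pck1, with 1081 FPKM against at most 700.3, and for Ppargc1a, with 0.938 FPKM against at most 0.583.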

How the results depend on the processing

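The count of the 10 genes called was 0 in every comparison and every alternative, with 1 exception: without each library in turn it ranged from 0 to 1 for knockdown label against control, the 1 being Fbp1 without knockdown-labelled library 2 (-1.36, SE 0.37, adjusted p = 0.0473), where 609 genes passed in all. The replicate block called 0 of the 10 genes and gave Fbp1 an adjusted p of 0.281 by edgeR. Deviations of same-numbered libraries had r from -0.166 to 0.214 (24 pairs, median 0.0084, 4 over 0.1). Pairs with other numbers had r from -0.230 to 0.271 (72 pairs, median -0.0047, 8 over 0.1). The labels do not say what the number marks, and these values cannot settle whether it marks a shared batch. The count of correlated pairs was 2, against 4 on deviations from the group means and 2 without the farthest libraries. Besides Foxo1 with Pck1 and with Pcx, the 4 held Fbp1 with Pcx (r = 0.836, permutation test, adjusted p = 0.00292). They also held Pck1 with Igfbp1 (r = 0.675, permutation test, adjusted p = 0.0442). Without deviations, Fbp1 with Pcx had r = 0.681 over all libraries and 0.400 without knockdown-labelled library 4. Limma on the authors' FPKM shifted the median of all genes to -0.11 for knockdown label against control and to 0.16 for BBR under the knockdown label, and fold changes there are relative to that. Over the alternatives other than single libraries left out, 570 log2 fold changes kept their sign and their side of the threshold. With Gm9747 added, Irs1 had 0.25 (SE 0.31) for knockdown label against control and 0.30 (SE 0.31) for BBR under the knockdown label, beside 0.16 (SE 0.70) and 0.58 (SE 0.71) as counted. Counting precision is lowest for Ppargc1a and Insr, with at least 178 and 226 counts per library, against at least 3731 for each enzyme. Irs1 had 101 counts in knockdown-labelled library 1 and 108 in control library 4, values that are uncertain because of Gm9747. In every other library Irs1 had at least 580 counts.

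Without the filter on low values, the log2 fold changes that took the other sign were those of G6pc at 0.014 for BBR under the knockdown label, Pck1 at -0.0069 for the knockdown label with BBR against control. With the replicate block, the sign turned for Pck1 at 0.00091 for knockdown label against control, Fbp1 at 0.023 for BBR in controls, Ppargc1a at 0.0023 for the knockdown label with BBR against control. By limma on log2(FPKM + 1), it turned for G6pc at -0.015 for knockdown label against control, Insr at 0.011 for BBR in controls, Pcx at 0.073 and G6pc at 0.20 for BBR under the knockdown label, Ppargc1a at 0.021 for the knockdown label with BBR against control, Ppargc1a at 0.0033 for the interaction. By limma on log2(FPKM + 0.1), it turned for Irs1 at -0.016 and G6pc at -0.017 for knockdown label against control, Insr at 0.019 for BBR in controls, Pcx at 0.075 and G6pc at 0.20 for BBR under the knockdown label, Ppargc1a at 0.038 for the knockdown label with BBR against control, Ppargc1a at 0.036 for the interaction. Without knockdown-labelled libraries 3 and 4 together, it turned for Igfbp1 at 0.045, Pck1 at 0.13, Irs1 at -0.56 and G6pc at -0.20 for knockdown label against control, Pck1 at -0.087, Fbp1 at -0.0077 and G6pc at 0.45 for BBR under the knockdown label, Pck1 at -0.033, Foxo1 at -0.061, G6pc at 0.095 and Ppargc1a at 0.13 for the interaction. Without knockdown-labelled library 1 and control library 4 together, it turned for Irs1 at -0.078 for BBR in controls. Without knockdown-labelled library 3 and control BBR library 2 together, it turned for Insr at 0.32 for BBR in controls, Insr at -0.084 for the knockdown label under BBR. The cause was not tested.

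Leaving out each library in turn turned the sign of some log2 fold changes, none of them called. For knockdown label against control, Foxo1 ranged from -0.32 to 0.052, G6pc from -0.27 to 0.51, Igfbp1 from -0.50 to 0.018, Irs1 from -0.24 to 0.54, Irs2 from -0.18 to 0.040, Pck1 from -0.13 to 0.19 and Ppargc1a from -0.25 to 0.11. For BBR in controls, Fbp1 ranged from -0.24 to 0.078, Insr from -1.92 to 1.99, Irs1 from -0.086 to 0.54, Pck1 from -0.18 to 0.18 and Ppargc1a from -0.078 to 0.49. For BBR under the knockdown label, G6pc ranged from -0.35 to 0.53, Igfbp1 from -0.28 to 0.91, Irs2 from -0.077 to 0.38, Pck1 from -0.17 to 0.23 and Ppargc1a from -0.13 to 0.24. For the knockdown label under BBR, Foxo1 ranged from -0.21 to 0.059, G6pc from -0.40 to 0.14, Insr from -1.90 to 2.14, Pck1 from -0.15 to 0.26 and Ppargc1a from -0.51 to 0.038. For the knockdown label with BBR against control, G6pc ranged from -0.052 to 0.49, Igfbp1 from -0.50 to 0.69, Insr from -1.93 to 2.25, Irs2 from -0.14 to 0.31, Pck1 from -0.21 to 0.28 and Ppargc1a from -0.28 to 0.22. For the interaction, Foxo1 ranged from -0.14 to 0.27, G6pc from -0.69 to 0.17, Insr from -3.32 to 0.72, Irs1 from -0.090 to 0.69, Pck1 from -0.11 to 0.30 and Ppargc1a from -0.39 to 0.20.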
